A study of Mus musculus with 18 samples.

Results

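The locus table from this Neuro2A pulldown experiment listed 1114 loci that held a microRNA (miRNA) gene, of 168136 loci in all and of 52179 with a gene symbol. A locus was taken when at least 1 of its comma-separated symbols was a miRNA gene (Mir with a number, or Mirlet7). Host transcript symbols that end in hg did not count. These loci held 1145 miRNA gene names. At 875 loci every symbol was a miRNA gene (miRNA alone), and at 239 loci a miRNA gene was joined with another gene under 1 value. The joined loci were divided further, after the data were seen, into 57 whose partners were annotated as noncoding and 182 with a protein-coding partner.

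Neuro2A (N2A) is a mouse neuroblastoma line, and the 18 samples all came from wild-type cells of this 1 line. Cells received biotin-tagged *miR-92b* or a tagged scrambled sequence (Scr), each as a mimic at 25 nM, or were left untransfected (control). RNA was collected with streptavidin beads either from isolated nuclei or from whole cell lysates. This gave 6 groups of 3 samples: nuclear control, nuclear Scr, nuclear *miR-92b*, whole cell control, whole cell Scr and whole cell *miR-92b*. The labels do not say whether the 3 samples of a group were separate cultures, so a p-value measures the spread between these samples, which may be technical. Libraries were made from RNA selected with oligo-dT beads, so a value at a miRNA locus counts reads of longer, polyadenylated RNA, and the mature miRNAs and the transfected mimic were not measured.

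A miRNA gene is transcribed as a long primary transcript, which can be a noncoding RNA of its own or the transcript of a host gene that holds the hairpin in an intron or exon. In the nucleus the Microprocessor, made of the nuclease DROSHA and its partner DGCR8, cuts the hairpin out. Exportin 5 with the GTPase RAN carries the hairpin to the cytoplasm, where DICER1 trims it to the mature miRNA. An Argonaute protein then uses the seed, bases 2 to 8 of the miRNA, to find target RNAs. Neurons and neuroblastoma cells are known for let-7, *miR-124*, *miR-9*, *miR-137*, *miR-7* and *miR-218*, many of which come from several genes.

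The pulldown used *miR-92b*, so the mature sequences that share its seed are shown first, with the seed in capitals. They are from RefSeq (GRCm38.p6), read 5′ to 3′, and all hold the seed AUUGCAC.
miR-92b-3p: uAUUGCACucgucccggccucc
miR-92a-3p: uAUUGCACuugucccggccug
miR-25-3p: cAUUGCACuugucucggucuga
miR-32-5p: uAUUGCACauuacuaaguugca
miR-363-3p: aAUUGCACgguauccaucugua
miR-367-3p: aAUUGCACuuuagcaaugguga
The *miR-92b-3p* sequence lies at chr3:89227126-89227147 on the minus strand. The copy of *miR-92a-3p* in the *miR-17* to *miR-92* cluster lies at chr14:115044476-115044496 on the plus strand, and *miR-25-3p* at chr5:138165332-138165353 on the minus strand.

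The loci with a symbol received 3752991 to 22920038 reads in each sample. Nuclear retained RNA was higher in nuclear samples for 3 of 4 tested genes (*Malat1*, *Neat1*, *Kcnq1ot1*, log2 fold changes 0.98 to 1.08), where 15.3% of all tested loci were called higher. *Meg3* was not called (1.65, SE 0.86), and the cytoplasmic mRNA *Gapdh* was lower by 2.35 on the log2 scale (SE 0.20). Of 12 sympathetic neuroblastoma markers 9 were tested, and *Nefl* was at 0 in every sample. The means of the 4 glia markers reached 86.6, those of the 2 immune markers 0.822 and those of the 2 fibroblast markers 4.77. The third whole cell *miR-92b* sample stood apart: it held the lowest share of reads on miRNA loci of all 18 samples. The counts of called loci of each kind and their medians between compartments are given with and without it. The counts of samples that do not overlap, of fold changes above 0 in all treatments and of other tools and scalings include it.

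At most loci that held a miRNA gene no read was counted. In all 18 samples 840 of the 1114 loci were at 0, a further 54 had reads but a mean normalized count (reads divided by 1 size factor per sample) below 10, and 220 passed this filter and were tested. The loci without reads were mostly the miRNA-alone loci, of which 829 of 875 were at 0, 19 were low and 27 were tested. Of the joined loci 11 were at 0, 35 were low and 193 were tested (29 with noncoding partners and 164 with a coding partner). The filter keeps a locus that is high in 1 compartment, so the tested loci are not a sample of all 1114. Per sample 205 to 245 of these loci had at least 1 read, and with at least 10 reads the median was 216 (nuclear) and 215 (whole cell).

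Many of the loci at 0 lay inside genes. For 522 of the 829 loci at 0 the hairpin lay inside a gene on the same strand, and for 390 that gene had its own tested locus. Of the 829, 643 were listed with the same coordinates as another locus. How reads were divided between such loci was not tested, so a 0 there does not show that the region had no reads. The locus of *Mir92b* itself was among those at 0. It was listed as 83 bases, chr3:89227116-89227198, which is a hairpin and no more, and 0 reads were counted there in every sample, which allows a level of up to 0.131 to 0.799 CPM depending on the sample. These limits stand for 3 reads and cover counting error only.

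The seed AUUGCAC was held by 7 loci, that of *Mir92b* included. Those of *Mir32*, *Mir363*, *Mir92-2* and the joint locus of *Mir302a*, *Mir302b*, *Mir302c*, *Mir302d* and *Mir367*, a cluster known from embryonic stem cells, were also at 0. The 2 loci with reads were the *miR-17* to *miR-92* host transcript *Mir17hg* (listed with *Mir17*, *Mir18*, *Mir19a*, *Mir19b-1*, *Mir20a* and *Mir92-1*, at chr14:115040932-115053082), a noncoding RNA known as an oncogenic miRNA cluster, and the *Mcm7* locus (with *Mir25* and *Mir93*, at chr5:138161071-138187451). *Mcm7* encodes a subunit of the replicative DNA helicase and carries both hairpins in an intron. *Mir92-1* is the older symbol of *Mir92a-1*; its locus and that of *Mir92-2* were named after their values were seen.

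At the *Mir17hg* locus the normalized counts were 579, 707 and 767 in the nuclear control samples, 722, 1161 and 637 in nuclear Scr and 761, 648 and 604 in nuclear *miR-92b*. In whole cell samples they were 362, 303 and 341 with control, 333, 353 and 326 with Scr and 328, 166 and 127 with *miR-92b*. All 9 nuclear samples lay above all 9 whole cell samples, and the log2 fold change of nuclear over whole cell was 1.36 (SE 0.16, adjusted p = 8.41e-07). Within whole cell samples 2 of the 3 *miR-92b* values were below every other sample and the remaining 1 was among the rest. For *miR-92b* against Scr it was -0.82 there (SE 0.28, adjusted p = 0.374) and -0.28 in nuclear samples (SE 0.28), and neither passed the test. Without the first whole cell *miR-92b* sample the whole cell value became -1.21 and passed (SE 0.26, adjusted p = 0.0336), and without the third it was -0.53 (adjusted p = 0.647), so this call rests on which samples are kept.

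At the *Mcm7* locus the counts were 396, 390 and 411 in nuclear control, 302, 177 and 604 in nuclear Scr and 362, 365 and 392 in nuclear *miR-92b* samples. They were 512, 570 and 471 in whole cell control, 565, 421 and 278 in whole cell Scr and 601, 388 and 628 in whole cell *miR-92b* samples. The compartments overlapped, with a log2 fold change of nuclear over whole cell of -0.40 (SE 0.19, adjusted p = 0.103), which passed without the third nuclear Scr sample (-0.56) and with sample weights (-0.39). The 3 Scr samples of each compartment spread more widely than the control samples, and *miR-92b* over Scr was 0.23 (SE 0.32) in nuclear and 0.38 (SE 0.32) in whole cell samples. The nuclear value turned to -0.20 without the second nuclear Scr sample.

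**Figure D1:**
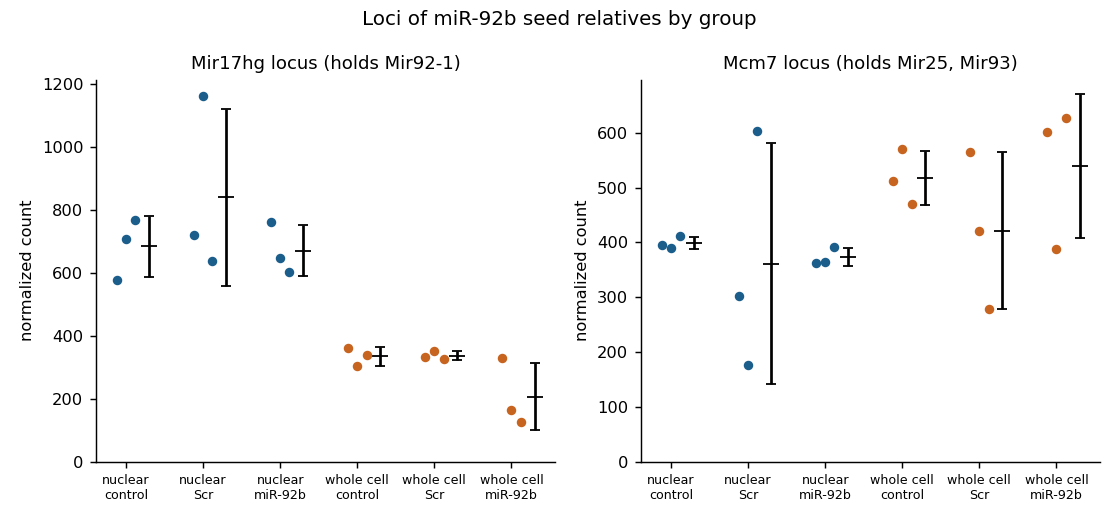
Normalized counts (vertical axis, from 0) of the Mir17hg locus, left, and the Mcm7 locus, right, by group; each point is 1 sample (nuclear blue, whole cell orange) and the bar beside it is the mean ± SD of 3 samples. At the Mir17hg locus the nuclear points (579 to 1161) lie above all whole cell points (127 to 362), whereas at the Mcm7 locus they overlap.

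Compartment separated the miRNA loci by what they were joined with. Of the 27 tested miRNA-alone loci 13 were higher in nuclear than in whole cell samples and 0 were lower (median log2 fold change 1.09), where 15.3% of all 15579 tested loci were called higher and 15.8% lower (median 0.14). Of the 29 loci with noncoding partners 19 were higher and 0 lower (median 0.97). Of the 164 loci with a coding partner 25 were higher and 48 lower (median -0.13). Over the 220 tested loci this made 57 higher, 48 lower and 115 not called. DESeq2 gave 57 and 48 (16% and 16.7% of all loci), and edgeR 55 and 41 (13.5% and 14.7%). Samples rescaled to the same median gave 63 and 36 (18.6% and 13.6%). The FPKM table (fragments scaled by transcript length and depth) gave 40 and 44 (8.92% and 16.1%), with 12 in place of 25 coding-partner loci higher, so that more loci were lower than higher there.

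The same division appeared when no model was used. All 9 nuclear samples lay above all 9 whole cell samples at 5 of 27 miRNA-alone loci, 12 of 29 loci with noncoding partners and 13 of 164 with a coding partner, against 2.91% of all tested loci. They lay below at 0, 0 and 14 loci, against 4.4% of all tested loci. In bulk RNA, fewer cells with a transcript and less of it in each cell cannot be told apart, and values are relative to the depth of a sample and not per cell.

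**Figure D2:**
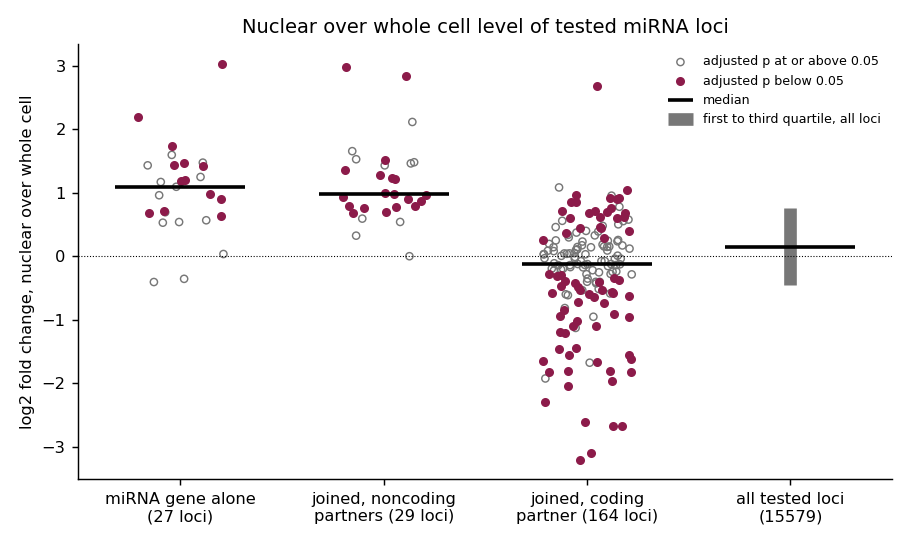
Log2 fold change of nuclear over whole cell normalized counts (vertical axis) for each tested miRNA locus by kind; filled points passed an adjusted p of 0.05, open points did not, black lines are medians and the grey bar is the range from the first to the third quartile of all 15579 tested loci. Medians are 1.09 for miRNA-alone loci, 0.97 for loci with noncoding partners, -0.13 for loci with a coding partner and 0.14 for all loci.

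In each treatment, taken from its own nuclear and whole cell samples, the miRNA-alone loci and the loci with noncoding partners had higher medians than the coding-partner loci, while the order of the first 2 kinds varied. For miRNA-alone loci the median log2 fold change was 0.69 in control, 0.77 in Scr and 1.44 in *miR-92b* samples, the last of which was 0.81 without the third whole cell sample. For loci with noncoding partners it was 0.98, 0.65 and 1.27 (0.87 without that sample). For coding-partner loci it was -0.20, -0.13 and -0.17 (-0.15 without that sample), and for all tested loci 0.06, 0.01 and 0.26 (0.12 without it). The fold change was above 0 in all 3 treatments at 19 of 27 miRNA-alone loci and 25 of 29 loci with noncoding partners, and at 5072 of all 15579. Without the third whole cell *miR-92b* sample the medians over all treatments became 0.93, 0.80, -0.11 and, for all loci, 0.10, and 13, 19 and 25 loci were higher and 0, 0 and 44 lower (14% and 14.6% of all loci). Of the 105 loci called in either direction 98 kept call and direction without it, 7 lost the call, *Mir1843b* with *Scarna3a* among them, and 0 turned.

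As a share of reads on loci with a symbol, miRNA loci held 3.77% to 3.98% in nuclear samples and 3.0% to 3.54% in whole cell samples. The miRNA-alone loci held 0.172% to 0.200% (median 0.182%) in nuclear samples and 0.0337% to 0.121% (median 0.106%) in whole cell samples, and the loci with noncoding partners 1.21% to 1.45% and 0.306% to 0.871%. For both kinds every nuclear sample was above every whole cell sample. The loci with a coding partner went the other way and overlapped at the edge, with 2.30% to 2.45% in nuclear and 2.44% to 2.66% in whole cell samples. A few loci carried much of this, since the 5 with most reads held 24.7% of all reads on miRNA loci and the 10 with most reads 37.2%. The third whole cell *miR-92b* sample gave the lowest values of the first 2 kinds (0.0337% and 0.306%), and the other 8 whole cell samples held at least 0.0966% and 0.692%.

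**Figure D3:**
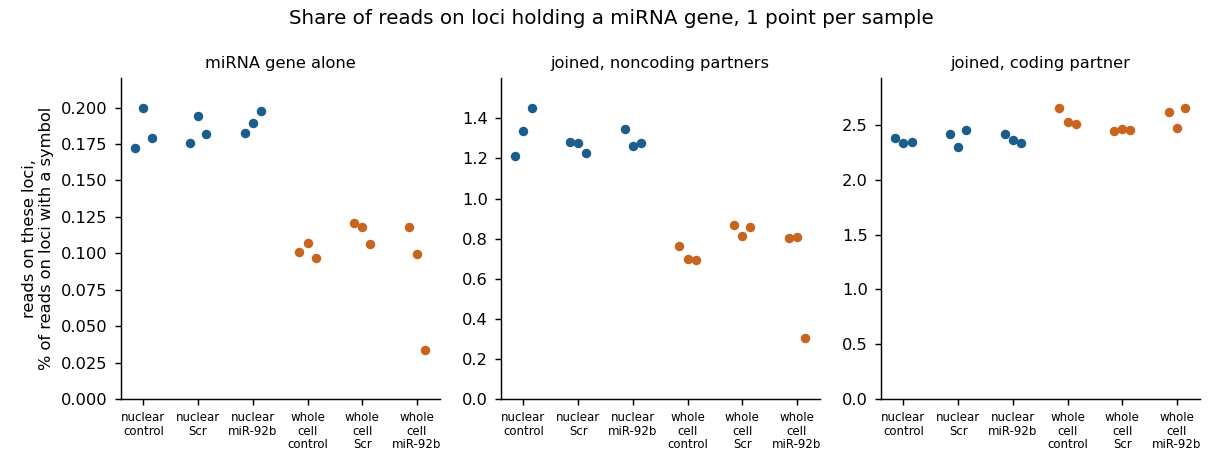
Percent of reads on loci with a symbol (vertical axes, each from 0) that fell on miRNA-alone loci, on loci with noncoding partners and on loci with a coding partner, 1 point per sample in 6 groups. In the first 2 panels all nuclear points lie above all whole cell points, and 1 whole cell miR-92b sample lies below the rest at 0.0337% and 0.306%.

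The miRNA-alone locus with the most counts held *Mir465*, *Mir465c-1* and *Mir881*, part of an X-linked cluster best known from testis. Its normalized counts were 2113 to 3629 (median 2919) in nuclear and 428 to 1728 (median 1404) in whole cell samples. No nuclear sample was as low as the highest whole cell sample, and the log2 fold change was 1.19 (SE 0.16, adjusted p = 5.44e-06). Its neighbours in the cluster were higher in nuclear samples too. The locus of *Mir471*, *Mir741* and *Mir883b* had a log2 fold change of 1.44 (SE 0.33, adjusted p = 0.00173), *Mir883a* 1.41 (SE 0.31, adjusted p = 0.00115) and the joined locus of *Gm14681*, *Mir742*, *Mir743* and *Mir743b* 1.22 (SE 0.16, adjusted p = 4.93e-06). Nuclear counts of *Mir883a* were 173 to 367 and whole cell counts 19.8 to 166, without overlap, whereas those of the *Mir471* locus overlapped (236 to 447 against 41.4 to 337).

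This cluster spans 19 hairpins in 14 listed loci between chrX:66776757 and chrX:66839125, and these 4 were the only ones among them with reads. The *Mir465* locus had the same coordinates as 7 other listed loci, those of *Mir871*, *Mir470* and *Mir465d* among them, all at 0. How reads were divided between them was not tested, so these loci at 0 are not shown to be silent. GENCODE M21 has no gene around the hairpins of the 3 miRNA-alone loci. Mature sequences from these 3 loci are shown because the loci were all higher in nuclear samples while the seeds (capitals) differ. Whether the loci share a transcript was not tested. The seed of *miR-883a-3p* occurred in both the *Mir883a* and the *Mir471* locus, which also holds *Mir883b*.
miR-465a-5p: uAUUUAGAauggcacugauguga
miR-881-3p: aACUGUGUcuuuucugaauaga
miR-471-5p: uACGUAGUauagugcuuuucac
miR-741-3p: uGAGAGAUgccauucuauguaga
miR-883a-3p: uAACUGCAacagcucucaguau

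Other large clusters had few loci with reads. Of 10 groups of at least 5 hairpins lying within 10 kb of each other, 7 had a locus with reads and 5 a tested locus. In the imprinted *Dlk1* to *Meg3* region on chromosome 12, 2 of 16 loci in the part that starts at *Mir770* had reads, and 1 of 31 in the part that starts at *Mir379*. The *Meg3* locus (with *Gm27300*, *Mir1906-1* and *Mir770*), an imprinted noncoding RNA, had 11.1 to 80.9 counts in nuclear and 0 to 89.9 in whole cell samples, overlapping widely (log2 fold change 1.65, SE 0.86, adjusted p = 0.145). At the *Sfmbt2* intron cluster on chromosome 2, 2 of 71 loci had reads. The tested locus there, *Mir669l*, had the same coordinates as 120 other listed loci, that of *Sfmbt2* among them. In the embryonic stem cell cluster of *Mir290a* to *Mir295*, 1 of 8 had reads, at a mean too low to test.

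Among miRNA-alone loci outside the X-linked cluster, *Mir195b* had the most counts, with 1280 to 3037 (median 2303) in nuclear and 433 to 2351 (median 1537) in whole cell samples. These ranges overlapped, and the log2 fold change of 0.64 (SE 0.21, adjusted p = 0.0233) was no longer called in the FPKM table (0.66), with no filter (0.64), without the second nuclear control sample (0.55) or without the third nuclear *miR-92b* sample (0.56). *Mir6379* had 292 to 651 in nuclear and 182 to 467 in whole cell samples. Its log2 fold change of 0.71 (SE 0.20, adjusted p = 0.00894) turned to -0.13 in the FPKM table. The hairpins of both lie outside annotated genes.

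*Mir7-2*, 1 of the genes for neuronal *miR-7*, had 132 to 411 (median 237) in nuclear and 37.1 to 133 (median 85.7) in whole cell samples. Its ranges met at the edge, and the log2 fold change was 1.47 (SE 0.29, adjusted p = 0.000455). *Mir466i* (log2 fold change 0.98, SE 0.32, adjusted p = 0.0218, not called in the FPKM table at 1.04, with no filter or without any 1 of 3 Scr samples) and *Mir669n* (3.03, SE 0.82, adjusted p = 0.00652) lay on the strand opposite to the introns of *Cdk13*, a kinase of RNA polymerase II, and *Slc30a7*, a zinc transporter. Of the 2, *Mir669n* was low, with 5.14 to 125 in nuclear and 0 to 35.7 in whole cell samples, and its fold change depends on the 1 added to each count. The call of *Mir669n* was lost under quantile normalization (1.63). The library kit marks strand, but the strand setting used for counting is not given in the sources used here, so reads of these loci and of the genes opposite cannot be told apart.

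**Figure D4:**
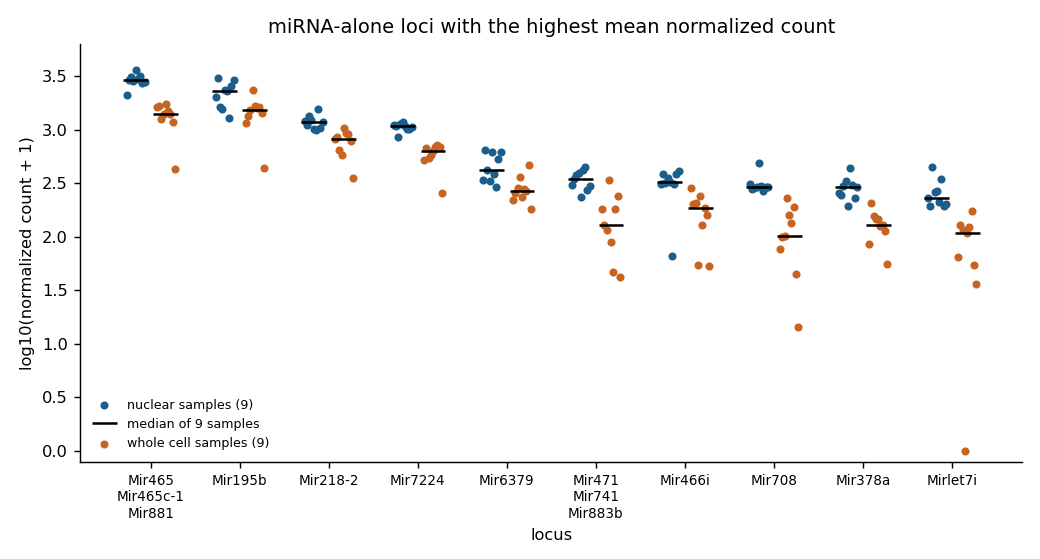
Log10(normalized count + 1) of the 10 miRNA-alone loci with the highest mean, 1 point per sample, with the 9 nuclear samples in blue and the 9 whole cell samples in orange; black lines are medians. The nuclear median is above the whole cell median at all 10 loci, and for let-7i 1 whole cell sample lies at 0.

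Several miRNA-alone loci lay in introns of genes that had a tested locus of their own, and these allow a comparison inside 1 gene. *Mir708*, in *Tenm4* (a teneurin, a transmembrane protein of neuronal connections), had 268 to 482 (median 292) in nuclear and 13.4 to 227 (median 101) in whole cell samples. The groups did not overlap, and the log2 fold change was 1.74 (SE 0.32, adjusted p = 0.000213), while that of the *Tenm4* locus was 0.83 (SE 0.11). *Mir378a*, in *Ppargc1b* (a transcriptional coactivator of energy metabolism), had a log2 fold change of 1.21 (SE 0.22, adjusted p = 0.000241), and *Ppargc1b* 0.27 (SE 0.15). *Mir218-2*, in *Slit3* (an axon guidance ligand), and *Mir7224*, in *B3galt1* (a galactosyltransferase), were close to their genes, with 0.68 (SE 0.16) beside 0.83 (SE 0.17) and 0.89 (SE 0.15) beside 0.94 (SE 0.14).

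Over the 11 such pairs on the same strand, the miRNA locus had the higher value in 7, with medians of 0.69 for the miRNA loci and 0.05 for the genes. Of the 11 gene loci 7 were called, 4 of them higher in nuclear samples (15.3% of all tested loci were called higher and 15.8% lower). The 3 that were lower, *Srebf2*, *Wdr82* and *Cdkl1* (a sterol regulatory factor, a subunit of histone methyltransferase complexes and a kinase), held *Mir33* (0.56, SE 0.29, adjusted p = 0.148), *Mirlet7g* and *Mir681* (0.54, SE 0.92), none of which was called. The difference inside a pair was not tested, and 20 of the 27 tested miRNA-alone loci were listed with the same coordinates as a locus with another entry. How reads were divided between such loci was not tested.

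**Figure D5:**
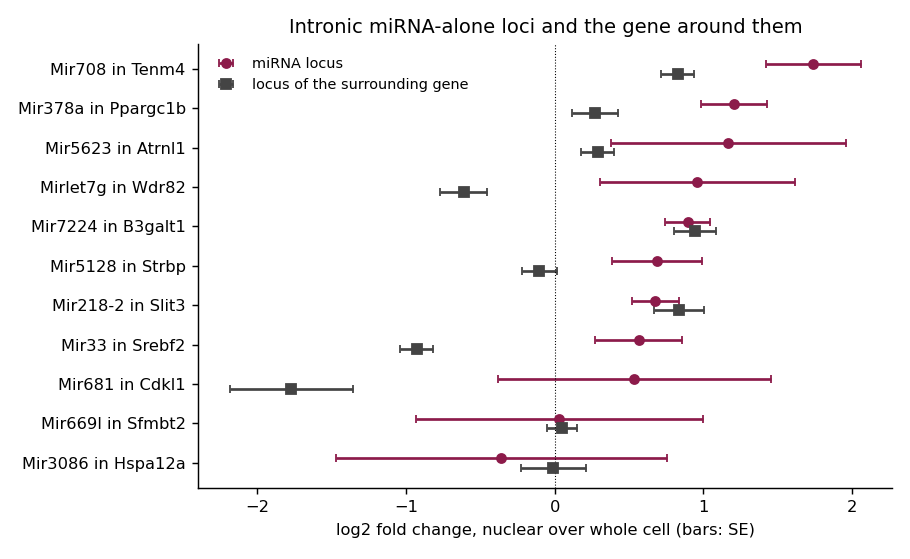
Log2 fold change of nuclear over whole cell (horizontal axis, bars are SE) for 11 intronic miRNA-alone loci (circles) and for the locus of the gene around each on the same strand (squares). The circle lies to the right of the square in 7 pairs, with Mir708 at 1.74 beside Tenm4 at 0.83, and Mir7224 and B3galt1 nearly coincide.

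The transcripts behind most miRNA-alone loci were estimated to be far longer than hairpins. The listed regions of the 27 tested loci ran from 1632 to 893885 bases (median 89380), against 39 to 139 bases (median 81) for the hairpins. These regions do not measure the transcript, since 20 of the 27 were listed with the coordinates of another locus. The miRNA-alone loci at 0 in all samples had a median listed region of 47478 bases. From the ratio of normalized count to FPKM the quantified transcripts were estimated at 298 to 14137 bases (median 2478). On 414 genes with 1 annotated transcript this estimate was 0.652 to 4.69 times the annotated length (5th to 95th percentile, median 1.02). The longest estimate was that of the *Mir465* locus (14137), and *Mirlet7i* had 2452 bases.

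let-7, a family that restrains proliferation and marks differentiation, was the largest seed group among the tested loci. Its mature sequences share the seed GAGGUAG (capitals) and are shown for the members with reads.
let-7a-5p: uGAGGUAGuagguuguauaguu
let-7c-5p: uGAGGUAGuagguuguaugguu
let-7e-5p: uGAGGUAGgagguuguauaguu
let-7f-5p: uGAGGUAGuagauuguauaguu
let-7g-5p: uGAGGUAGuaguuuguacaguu
let-7i-5p: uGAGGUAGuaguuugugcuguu
Of 9 let-7 loci 4 were at 0 (*Mirlet7a-2*, *Mirlet7b*, *Mirlet7c-1* and *Mirlet7f-2*) and 5 were tested. Of these 5, 4 were higher in nuclear samples, where 15.3% of all tested loci were.

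The let-7 locus with the most counts joined *Mirlet7c-2* with the noncoding *Gm37699*, with 8213 to 12735 (median 10676) in nuclear and 3630 to 7879 (median 7097) in whole cell samples (log2 fold change 0.67, SE 0.13, adjusted p = 0.000396). The locus of *Mirlet7a-1* and *Mirlet7f-1*, with the noncoding *6720427I07Rik* and *Gm37238*, had 868 to 1593 (median 1032) and 199 to 620 (median 521) (1.28, SE 0.17, adjusted p = 4.36e-06). Neither overlapped between compartments. The locus of *Mirlet7e* with *Mir125a*, *Mir99b* and *Spaca6*, a sperm protein gene, had 1437 to 2117 (median 1646) and 424 to 1274 (median 992), again without overlap (0.85, SE 0.15, adjusted p = 0.000129), though the FPKM table did not call it (0.73).

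*Mirlet7i*, alone at its locus and inside an exon of *D630033A02Rik*, had 191 to 446 (median 228) in nuclear and 0 to 171 (median 108) in whole cell samples (2.19, SE 0.62, adjusted p = 0.00952). Its lowest whole cell value was 0, in the first Scr sample, and the second lowest 35.1. *Mirlet7g*, in an intron of *Wdr82*, had 27.0 to 73.7 and 0 to 53.0, which overlapped (0.96, SE 0.65, adjusted p = 0.276).

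Of 19 loci with a neuronal miRNA gene, 10 were at 0, 4 were low and 5 were tested. The loci at 0 were those of *Mir128-1*, *Mir128-2*, *Mir132*, *Mir212*, *Mir218-1*, *Mir34b*, *Mir34c*, *Mir7-1*, *Mir9-1* and *Mir9-3*. Among the tested, *Mir137* stood in a locus with the noncoding *Gm26871* and *Gm37928* that had 6377 to 8158 (median 6874) in nuclear and 1753 to 4464 (median 3696) in whole cell samples. The groups did not overlap and the log2 fold change was 0.99 (SE 0.13, adjusted p = 2.37e-06). The locus of *Mir124a-1*, the gene of the most neuron-specific miRNA, with its host transcript *Mir124a-1hg* and *Mir3078*, had 20.2 to 115 (median 36.0) and 0 to 69.4 (median 26.5), and did not pass (2.11, SE 0.82, adjusted p = 0.0528), although it did in the FPKM table (2.42), with samples at the same median (2.18) and without any 1 of 4 samples (2.27 to 2.75). *Mir7b* had 24.0 to 62.8 and 0 to 46.7 (1.47, SE 0.61, adjusted p = 0.0676) and passed in the FPKM table (1.34), by DESeq2 (1.37) and without the second whole cell *miR-92b* sample (1.70).

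The mature forms are shown, with seeds in capitals, for the neuronal *miR-7*, *miR-137* and *miR-218*, and for *miR-708* from the intron of *Tenm4*. *miR-7a* and *miR-7b* share the seed GGAAGAC, and 1 of their 2 tested loci was higher in nuclear samples (15.3% of all tested loci).
miR-7a-5p: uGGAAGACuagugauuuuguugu
miR-7b-5p: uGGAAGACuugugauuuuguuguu
miR-137-3p: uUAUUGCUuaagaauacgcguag
miR-218-5p: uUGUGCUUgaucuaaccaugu
miR-708-5p: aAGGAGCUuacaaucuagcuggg
Of the 341 seeds held by tested loci, 20 occurred in at least 2 of them. The seed AGCAGCA was held by the loci of *Mir16-1*, *Mir195b* and *Mir322* with *Mir503*, of which 2 were higher. AGCACCA was held by both *miR-29* loci, which were both higher, where 15.3% of all tested loci were.

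Among loci joined with noncoding genes was the one with the most counts of all miRNA loci. This locus, of *Lncpint*, a noncoding RNA induced by p53, with *Mir29a*, *Mir29b-1*, *5330406M23Rik*, *Gm13834* and *Gm27019*, had 26670 to 33159 in nuclear and 8305 to 22973 in whole cell samples, without overlap (log2 fold change 0.76, SE 0.14, adjusted p = 0.000275). That of *Mir138-1*, joined with *9530059O14Rik* among others, had 8310 to 11573 and 2195 to 6102 (0.96, SE 0.15, adjusted p = 2.94e-05). Both lay fully apart between compartments, as did the locus of *Dleu2*, a noncoding RNA deleted in leukaemia, with *Mir16-1* and *Gm27010* (0.97, SE 0.15), and that of *Nespas*, an antisense RNA of the imprinted *Gnas* region, with *Mir296* and *Mir298* (0.78, SE 0.13).

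The largest nuclear fold changes among joined loci were at low counts. *Mir181a-1* with *A430106G13Rik* had 6.09 to 49.0 in nuclear and 0 to 16.2 in whole cell samples (2.98, SE 0.82, adjusted p = 0.00766). *Mir1839* with *2900076A07Rik* had 36.6 to 177 and 0 to 89.1 (2.84, SE 0.74, adjusted p = 0.00501). *Mir6901* with *Sned1*, a matrix protein gene, had 12.9 to 77.1 and 0 to 34.6 (2.67, SE 0.82, adjusted p = 0.0162). All 3 overlapped between compartments, and the call was lost for *Mir181a-1* under quantile normalization (1.20) and for *Mir6901* with edgeR (1.64), DESeq2 (1.67) and the FPKM table (1.29). *Mir1843b* with *Scarna3a*, a guide RNA of Cajal bodies, had 77.7 to 180 and 0 to 115 (1.51, SE 0.57, adjusted p = 0.0478) and lost its call under most alternatives, edgeR (1.04), DESeq2 (1.05) and the FPKM table (1.56) among them.

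Coding-partner loci with large decreases in nuclear samples held housekeeping genes among others. *Mir5121* with *Rpl13a*, a ribosomal protein gene, *Flt3l* and the snoRNA gene *Snord33* had 290 to 1055 (median 408) in nuclear and 1880 to 6819 (median 3106) in whole cell samples (-2.68, SE 0.19, adjusted p = 3.46e-10), and *Mir6935* with *Actg1*, cytoplasmic actin, and *Gm23419* had 828 to 3119 and 6838 to 21347 (-2.61, SE 0.18, adjusted p = 2.29e-10). Neither locus overlapped between compartments.

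Loci with fewer counts and the same direction were *Mir686* with *Psmb5*, a proteasome subunit (-3.11, SE 0.68, adjusted p = 0.00122), *Mir5107* with *Cd74*, the invariant chain (-2.67, SE 0.67, adjusted p = 0.00387), and *Mir7019* with *Pink1*, a mitochondrial kinase, and *Gm27646* (-2.29, SE 0.59, adjusted p = 0.00488). In *Mir686* and *Mir5107* the compartments overlapped, with 0 to 29.6 against 25.3 to 178 and 0 to 75.7 against 48.2 to 338. Coding-partner loci with a snoRNA gene that were lower included those of *Rpl13a*, *Atp5b* (an ATP synthase subunit, -2.05) and *Ncl* (nucleolin, -0.62). In contrast, the snoRNA host *Gas5*, a noncoding RNA joined with *Mir5117*, was higher (0.79, SE 0.18, adjusted p = 0.00133).

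Other coding-partner loci were higher in nuclear samples. That of *2010111I01Rik* with *Mir23b*, *Mir24-1* and *Mir27b* had 7117 to 9225 in nuclear and 2085 to 5233 in whole cell samples (0.92, SE 0.14, adjusted p = 1.71e-05). The locus of *Dgcr8* with *Mir1306* and *Gm24572* had 1418 to 1898 and 287 to 1240 (0.96, SE 0.18, adjusted p = 0.000343), and *Zbtb20*, a zinc finger factor, with *Mir568* 2088 to 2855 and 1048 to 1810 (0.67, SE 0.10, adjusted p = 2.33e-05). All 3 lay apart between compartments. These 3 and the *Lncpint*, *Mir138-1*, *Dleu2*, *Nespas*, *Atp5b*, *Ncl* and *Gas5* loci were named after their values were seen.

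Of the 13 genes of miRNA processing all were tested, 5 were higher in nuclear samples and 3 lower. Over all tested loci 15.3% were called higher and 15.8% lower. Besides *Dgcr8*, the helicases *Ddx5* (0.26, SE 0.10, a locus that also holds *Mir3064*) and *Ddx17* (0.43, SE 0.09), the DICER1 partner *Tarbp2* (0.44, SE 0.16) and the Argonaute *Ago3* (0.50, SE 0.16) were higher. *Drosha* (-0.64, SE 0.16, a locus that also holds *AC133189.1*), *Ran* (-1.18, SE 0.13) and *Ago2* (-0.60, SE 0.09) were lower. The *Ago2* value is that of a locus joined with *Ptk2*, so the decrease cannot be assigned to *Ago2* alone. Of 10 host transcripts with a symbol ending in hg, 4 were tested and 1, *Mir17hg*, was higher (15.3% of all tested loci).

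The pulldown comparison, which asked what RNA was collected with *miR-92b* beyond Scr, called none of these loci. In nuclear samples 0 of 220 loci passed, where 0% of all tested loci did, and 4 had an unadjusted p below 0.05 by limma (687 of all 15579). In whole cell samples 0 of 220 passed, where 0.00642% of all loci did (1 locus), and 27 had an unadjusted p below 0.05 (1515 of all). edgeR called 0 in both (0% and 0.00642% of all loci). DESeq2 called 0 in nuclear (0.00642% of all loci) and 2 of 220 in whole cell samples, a share near the 1.13% of all loci that it called there, *Mir669n* (7.34, SE 1.83, adjusted p = 0.0146) and the locus of *Mir344-2* with *A330076H08Rik* (-0.85, SE 0.24, adjusted p = 0.0407). *Mir669n* had few counts, with a mean of 7.44 in whole cell samples, and limma gave 3.19 there (SE 1.41, adjusted p = 0.484).

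Against control, 0 of 220 loci passed in nuclear samples (0% of all loci) and 0 in whole cell samples (0.00642% of all loci), with 1 and 11 at an unadjusted p below 0.05. edgeR (0% and 0.00642% of all loci) and DESeq2 (0% and 0.135%) also called 0 in each. The difference between the nuclear and whole cell effects of *miR-92b* over Scr was called by limma at 0 of 220 loci (0.00642% of all loci), with 21 at an unadjusted p below 0.05, by edgeR at 0 (0.00642%) and by DESeq2 at 1, where 0.257% of all loci were called (*Mir669n*, -10.23, SE 2.32, adjusted p = 0.0174). The comparisons with Scr and with control share the *miR-92b* samples.

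In whole cell samples the median for *miR-92b* against Scr was -0.56 on the log2 scale at the 29 loci with noncoding partners, with 3 of 29 above 0, and -0.19 at the 27 miRNA-alone loci, beside -0.01 over all tested loci. Without the third *miR-92b* sample these medians were -0.10 with 13 of 29 above 0, -0.14 and 0.02, so that the difference at loci with noncoding partners rested largely on that sample. In nuclear samples the medians were 0.02, 0.18 and 0.11. Leaving out 1 whole cell sample changed which loci were called. Without the first *miR-92b* sample 4 of 220 passed, where 0.494% of all loci did: *Mir708* (-2.73, SE 0.44, adjusted p = 0.0107), *Mir1843b* with *Scarna3a* (-4.33, SE 0.94, adjusted p = 0.036), the *Mir17hg* locus (-1.21) and *Mir6944* with *Dbn1*, an actin-binding protein gene (1.31, SE 0.27, adjusted p = 0.028). Without the second Scr sample *Mir330* with *Eml2*, a microtubule protein gene, passed (6.39, SE 1.19, adjusted p = 0.0397), 1 of 220 where 0.0834% of all loci did.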

How the data were processed

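RNA-seq of 18 Neuro2A pulldown samples was used, and samples were grouped by their labels. Per the labels and methods, the authors used Trimmomatic 0.30 for trimming, TopHat2 for alignment to mm10 (GRCm38) and Cufflinks for loci (both versions and annotation release not given in the sources used here). Some overlapping genes share 1 locus, and other loci share coordinates but have separate values. The deposited counts are normalized, a signal of fragments at a locus scaled with a single factor for each sample, whereas the deposited FPKM values also account for transcript length. The authors' comparison tables hold group FPKM, a log2 fold change, a p-value and a q-value, and were not used.

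Each of the 635205 values above 0 came out as whole reads once this factor was removed (100% within 0.02 reads), so reads were recovered for edgeR, DESeq2 and depth. The 115957 loci without a symbol, with 4.51% to 15.3% of the reads, were left out. limma 3.58.1 (R 4.3.3), allowing a trend of variance with level, on log2(normalized count + 1), fitted 1 model of the 6 groups to 15579 loci with a mean of at least 10, two-sided, with Benjamini-Hochberg adjustment over all of them and a threshold of 0.05. Fold changes are on that scale. At low loci they depend on the 1 added and can lie above those of count models, as at *Mir6901* (2.67, against 1.64 by edgeR and 1.67 by DESeq2). They can also be smaller, as at *Mir669n* for *miR-92b* over Scr in whole cell samples (3.19, against 7.34 by DESeq2). The model was tested on simulated data. The members, lists and rules were chosen with earlier results of these data known. Named loci were the *miR-25* family, the 10 miRNA-alone loci with the highest mean, the joined (6 per direction) and miRNA-alone (up to 6) loci with the largest called compartment difference, and the neuronal and let-7 loci. Alternatives were pseudocounts of 0.5 and 8, filters of 1, 50 or none, the FPKM table (pseudocount 0.1), rescaling to the same median, quantile normalization, sample weights, the compared groups alone, a replicate block, edgeR 4.0.16, DESeq2 1.42.0 and each sample left out. The division of joined loci by partner type, the counts of samples that do not overlap and the values by kind and by locus without the third whole cell *miR-92b* sample were added after the data were seen. Partner types and hairpins came from GENCODE M21, where 15 partner symbols at 12 loci found no match, and sequences from RefSeq, where 976 of 1145 miRNA genes matched. Some of the loci and markers that these rules name are not reported here.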

Additional observations from a re-analysis of the deposited data

How the results depend on the processing

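The counts of loci higher and of loci lower in nuclear samples each stayed within 1.5 times of the count reported under the alternatives tried, except that the FPKM table called 12 in place of 25 coding-partner loci higher, and 1389 in place of 2377 of all loci. The balance of the 2 directions did not hold: 57 higher and 48 lower became 40 and 44 in the FPKM table, and for all loci 2377 and 2454 became 2900 and 2122 with samples at the same median. Between 40 and 65 loci were higher in nuclear samples (57 in the model as reported) and 36 to 50 lower (48), and 11 to 15 miRNA-alone loci were higher and 0 lower. Leaving out single samples gave 53 to 65 higher and 37 to 50 lower. With the same sample number as a replicate block, 60 loci were higher and 47 lower, 13 of them miRNA-alone loci that were higher, and 0 were called in each pulldown comparison. The labels do not say that a number marks a shared culture, and deviations of same-numbered samples correlated at -0.04 to 0.11 over 45 pairs (median 0.002; -0.002 over 90 pairs with other numbers), so the numbers were not taken as a pairing. For *miR-92b* over Scr in whole cell samples DESeq2 called 2 loci (176 of all 15579), and leaving out single samples 0 to 4 (up to 77 of all). For the difference of the effects DESeq2 called 1 (40 of all). Without the third whole cell *miR-92b* sample the median at loci with noncoding partners moved from -0.56 to -0.10.

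Of the compartment and pulldown values of the named loci, 978 kept direction and call, 37 lost the call, 12 gained it and 2 turned: *Mcm7* in *miR-92b* over Scr, nuclear, to -0.20 without the second nuclear Scr sample (0.69 without the third, the range of leaving out single samples), and *Mir6379* in nuclear over whole cell to -0.13 in the FPKM table. The cause was not tested. DESeq2 gave no adjusted p for 18 loci. Tested loci had a median of 5 to 21492 reads per sample, and the lowest of these limit the precision of their fold changes.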
